A study of Rattus norvegicus with 6 samples.

Results

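Some stretches of chromatin were called accessible in WT INS-1 cells after both cAMP-raising stimuli and in no other library of the experiment. ATAC-seq, which reads open chromatin by the cuts of a transposase, was used on INS-1 cells, a rat insulinoma line that stands in for the pancreatic beta cell. The peaks described here were chosen by their call lists: they were called in WT Ex-4 and in WT FSK, and neither in WT CON nor in any of the 3 Med14 S983A libraries. They are named WT stimulus-only peaks below and number 2384 of 220487 merged peaks outside the mitochondrial chromosome (1.08%). The groups were WT CON, WT Ex-4 (the GLP-1 receptor agonist Exendin-4, 10 nM, 1 h), WT FSK (the adenylyl cyclase activator forskolin, 10 µM, 1 h), and the same 3 conditions in Med14 S983A cells, in which a CRISPR knock-in replaced a serine of Med14 by alanine. Each condition had 1 library, so no value below has a replicate error, no test was run, and differences describe 6 libraries. The mutant lines were grown from single sorted cells, so an effect of the substitution and one of the clone cannot be told apart, and the sources used here do not tell which of the study's lines gave the libraries.

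In beta cells, GLP-1 receptor agonists raise cAMP and activate protein kinase A, which phosphorylates CREB and lets the coactivator CRTC2 enter the nucleus. Forskolin raises cAMP without the receptor. Med14 is the scaffold subunit of Mediator, the complex that carries signals from enhancer-bound factors to RNA polymerase II, and the serine replaced here is a target of protein kinase A. Enhancers that respond to cAMP commonly become more accessible when factors bind them, which is why peaks that appear with a stimulus in one genotype are of interest.

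Values are FPKM, that is fragments per kilobase of peak and scaled to the reads that fell in peaks called in the same library. A value of 0 marks a peak that the library did not call, and says nothing of signal under the calling threshold. Of the WT stimulus-only peaks, 2369 were listed at 0 in all 4 other libraries. The remaining 15 had values of 0.025 to 0.383 FPKM in a library that did not call them, and all of these lay within 48 bp of another peak. No fold against CON or against the mutant is therefore given for these peaks. The steps between low values allowed the reads in peaks to be recovered, and they came to 151500000 in WT CON, 158800000 in WT Ex-4 and 251200000 in WT FSK, with 134300000, 147100000 and 163000000 in Med14 S983A CON, Ex-4 and FSK. A step may stand for a read or for 1 end of a pair. The WT FSK library was thus 1.54 times as deep as the Med14 S983A FSK library and 1.66 times as deep as WT CON, and it had the most called peaks, 169448 against 119021 to 144166 in the other 5. The part of depth in the calls was not tested.

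The rule rests on calls alone, and the same kind of pattern occurred for pairs of WT libraries that include CON. WT CON and WT Ex-4 alone shared 3570 peaks, more than the 2384 that WT Ex-4 and WT FSK alone shared, and WT CON and WT FSK alone shared 1527. In Med14 S983A the corresponding numbers were 2162 for CON and Ex-4, 2087 for Ex-4 and FSK, and 998 for CON and FSK. The pair of stimulated libraries was therefore not the most frequent exclusive pair in either genotype. The word induced is not used for these peaks, since their level in WT CON is known only to be uncalled.

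WT stimulus-only peaks were weak and short. In WT Ex-4 the values ran from 0.363 to 33.0 FPKM with a median of 1.97, and in WT FSK from 0.373 to 37.2 FPKM with a median of 2.47. The middle of the distribution was narrow, with quartiles of 1.48 and 2.80 FPKM in WT Ex-4 and of 1.76 and 3.80 FPKM in WT FSK. The median peak in each called library held 5.36 FPKM in WT Ex-4 and 4.41 FPKM in WT FSK, so that the typical WT stimulus-only peak lay below the typical called peak. In reads, the median was 62.0 in WT Ex-4 and 120 in WT FSK, and the lowest was 15 and 27. The median length was 191 bp (104 to 1145 bp) against 284 bp over all merged peaks. Requiring an average of 1 FPKM or more across the libraries, a common filter for such tables, kept 666 of the 2384 peaks (27.9%) but 66.6% of all merged peaks, and the 666 passed on their WT stimulated values alone.

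**Figure D1:**
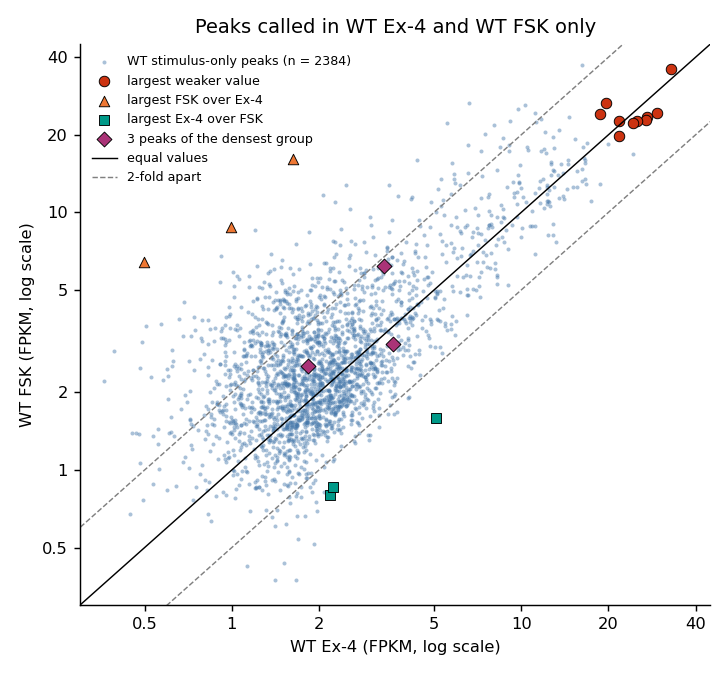
WT Ex-4 (x axis) and WT FSK (y axis) values in FPKM, both on log scales, of the 2384 WT stimulus-only peaks, each a point. The solid line marks equal values and the dashed lines a 2-fold distance, and the larger symbols are the individual peaks described in the text. Most points form a cloud around 2 FPKM, a thin tail reaches 33.0 FPKM in WT Ex-4, and more points lie beyond the upper dashed line than beyond the lower one.

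A library can miss a peak because it is absent or because it is too weak to be called. The 5th percentile of the values of called peaks, taken here as a floor of calling, was 1.28 FPKM in WT CON and 1.21, 1.17 and 1.22 FPKM in Med14 S983A CON, Ex-4 and FSK. Both WT stimulated values exceeded the highest of these floors in 1874 of the 2384 peaks (78.6%), and in the other 510 at least 1 value did not. Both exceeded the highest 25th percentile, 2.72 FPKM, in 513 peaks (21.5%), and the highest median, 5.56 FPKM, in 184 (7.72%). For the peaks called in Med14 S983A Ex-4 and FSK only, the corresponding shares were 82.7%, 23.0% and 5.65%. Most called peaks of a library pass its 5th percentile by definition, so the first share does not mark these peaks as strong. The peaks just inside the rule were as faint as 0.363 FPKM, found in WT Ex-4 at chr12:31276097-31276842 with 2.22 FPKM in WT FSK.

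Just outside the rule lay peaks with a call in 1 further library. The further call came from the mutant FSK library for 1159 peaks, from mutant Ex-4 for 305 and from mutant CON for 145, besides 12172 called in all 3 WT libraries and no mutant one. The faintest further values among those with at least 2 FPKM in both WT stimulated libraries were in WT CON, at chr6:95524888-95525711 (0.529 FPKM in CON, 2.44 in Ex-4 and 4.10 in FSK) and at chr14:62908044-62908876 (0.539 FPKM in CON, 4.84 in Ex-4 and 15.5 in FSK). The third was chr10:20949499-20950034, with 0.631 FPKM in Med14 S983A FSK, 2.20 in WT Ex-4 and 3.63 in WT FSK. A peak with a clear gain over WT CON, such as the one on chromosome 14, can thus fall outside the rule through a faint call in CON.

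Peaks called in WT Ex-4 and WT FSK but not WT CON numbered 7869, and the study's design asks how many of them the mutant lacked. No mutant library called 2384 of them (30.3%), where 17.1% of all WT CON peaks were called in no mutant library. The 2 sets were not matched for strength or length. The median was 5.56 FPKM over WT CON peaks, while the call patterns of the gained peaks had medians of 1.63 to 2.09 FPKM in WT Ex-4. Both stimulated mutant libraries and not mutant CON called 1383 (17.6%), mutant FSK alone called 1159 (14.7%) and mutant Ex-4 alone 305 (3.88%). Mutant CON, alone or with others, called 2638 (33.5%), of which 2061 were called in all 3 mutant libraries. More of these peaks were therefore already called in unstimulated mutant cells than were called in no mutant library.

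The mirror split was made in the same way. Med14 S983A Ex-4 and FSK, without Med14 S983A CON, called 10811 peaks, and no WT library called 2087 of them (19.3%, where 10.3% of all Med14 S983A CON peaks were called in no WT library), named mutant stimulus-only peaks below. WT FSK alone called a further 3465 (32.1%), and WT CON, alone or with others, called 3763 (34.8%). The absolute numbers of stimulus-only peaks were close in the 2 genotypes, while the share was lower in the mutant split. As above, the CON peaks set beside the gained peaks were not matched to them for strength or length. The 2 splits use all 6 libraries in common and are not independent.

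**Figure D2:**
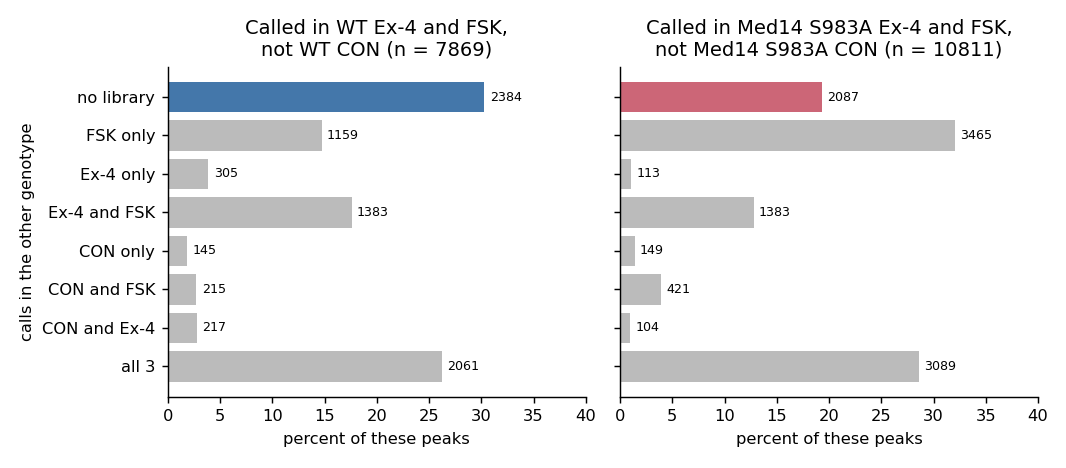
Percent of the peaks called with both stimuli and not in CON of WT (left, n = 7869) and of Med14 S983A (right, n = 10811), by which libraries of the other genotype called them, with the number of peaks at each bar. The coloured bars are the 2384 WT stimulus-only and the 2087 mutant stimulus-only peaks.

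The stimuli gave similar median levels at the WT stimulus-only peaks. Over single peaks, the Spearman correlation of the Ex-4 and FSK values was 0.54, against 0.90 over all peaks called in both libraries. FSK was higher than Ex-4 in 1503 of 2384 peaks (63.0%), and the median log2 ratio of FSK over Ex-4, with 0.5 FPKM added to each value, was 0.18 (95% order-statistic interval over peaks, 0.15 to 0.21). Over all 120024 peaks called in both libraries the median log2 ratio was −0.10, and 38.6% were higher with FSK. Relative to that general level the WT stimulus-only peaks were shifted by 0.28 on the log2 scale towards FSK, and the shift was 0.27 and 0.30 when the libraries were centred or quantile-normalized over peaks called in all 6. FSK exceeded Ex-4 at least 2-fold in 287 peaks (12.0%), where 6.03% of all peaks called in both did so. Ex-4 exceeded FSK at least 2-fold in 9 peaks (0.378%), where 2.67% of all peaks called in both did so. The lean to FSK was larger over all 7869 peaks called in WT Ex-4 and WT FSK but not WT CON, which include these 2384. Their median log2 ratio was 0.41, with 72.6% higher with FSK, 28.8% at least 2-fold higher with FSK and 0.343% at least 2-fold higher with Ex-4. Both values are from libraries that chose the peaks, so nothing is read from these shares and correlations beyond their size.

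The same values are given for 2 other sets chosen by calls. The 1383 peaks called in all 4 stimulated libraries and neither CON had medians of 1.69 FPKM in WT Ex-4 and 4.68 FPKM in WT FSK, a median log2 ratio of 1.17 (1.09 to 1.24), and 785 of them (56.8%) were at least 2-fold higher with FSK. In Med14 S983A the same peaks had a median log2 ratio of 0.66 (0.61 to 0.71), from medians of 2.02 FPKM with Ex-4 and 3.56 FPKM with FSK. The mutant stimulus-only peaks had medians of 2.11 FPKM with Ex-4 and 2.40 FPKM with FSK, and a median log2 ratio of 0.13 (0.11 to 0.15). The median length was 191 bp for the WT stimulus-only, 179 bp for the mutant stimulus-only and 299 bp for the shared gained peaks. All 3 sets were chosen by calls in the libraries whose values are compared, so these are descriptions of the sets and were not tested.

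**Figure D3:**
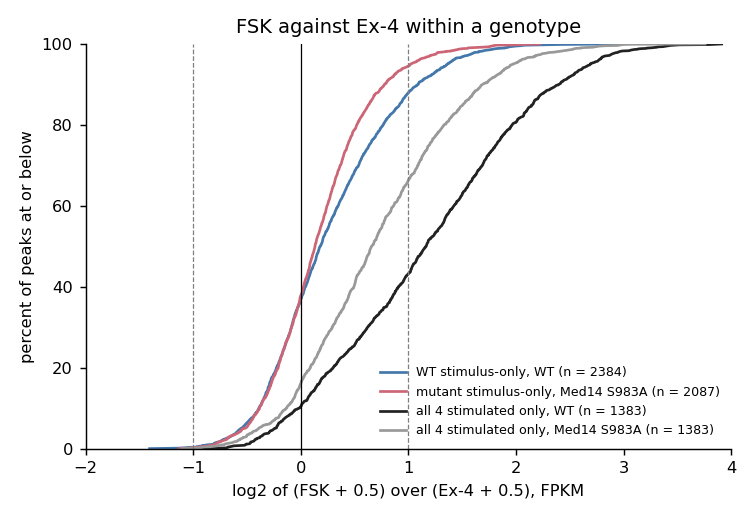
Cumulative percent of peaks (y axis) against the log2 ratio of FSK over Ex-4, with 0.5 FPKM added (x axis), for the WT stimulus-only peaks, the mutant stimulus-only peaks and the peaks called in all 4 stimulated libraries only, the last in each genotype. Dashed lines mark 2-fold. The curves of the WT and mutant stimulus-only peaks run close together, and both curves of the shared gained peaks lie to their right.

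The 287 WT stimulus-only peaks with at least 2-fold more FSK than Ex-4 signal were longer than the peaks within 2-fold. Their median length was 299 bp, against 181 bp for the 2088 peaks within 2-fold. The 9 peaks with at least 2-fold more Ex-4 than FSK signal had a median length of 362 bp. A greater length was therefore not particular to the FSK side. The peaks called in all 4 stimulated libraries only also had a median of 299 bp. The 287 peaks had medians of 1.42 FPKM in WT Ex-4 and 4.42 FPKM in WT FSK. Among WT stimulus-only peaks with a larger value of at least 2 FPKM, the ratio was greatest at chr9:67550220-67550867, with 0.496 FPKM in WT Ex-4 (95% Poisson interval 0.369 to 0.652, counting error only) and 6.44 FPKM in WT FSK (6.05 to 6.84), a ratio of 13.0. The next were chr4:160507266-160507874, with 1.63 FPKM and 16.0 FPKM (15.4 to 16.7), and chr1:131628844-131629250, with 0.992 FPKM (0.764 to 1.27) and 8.78 FPKM (8.21 to 9.37). All 3 were over 400 bp long. Their intervals for the 2 stimuli lay far apart, but the 3 were picked for their ratio in these same libraries, so nothing is read from this.

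Beside these 3 peaks, most of the nearest peaks called in all 6 libraries were lower in the mutant. To the right of the chromosome 4 peak, the nearest peak called in all 6 libraries, 7346 bp away, had 10.1, 10.0 and 8.40 FPKM in WT CON, Ex-4 and FSK and 0.671, 0.832 and 0.636 FPKM in the mutant, while the nearest on the left, 224229 bp away, had 1.12 FPKM in WT CON and 2.60 FPKM in Med14 S983A CON. The nearest on either side of the chromosome 1 peak had 13.8 and 11.4 FPKM in WT CON and 2.25 and 2.13 FPKM in Med14 S983A CON, although 168902 and 952176 bp away. To the left of the chromosome 9 peak, at 12690 bp, the values in CON were 8.88 FPKM in WT and 4.86 FPKM in the mutant. These neighbours, several of them far away, thus differed between the genotypes without a stimulus, in opposite directions on the 2 sides of the chromosome 4 peak. Over all peaks called in all 6 libraries, 10.5% were at least 2-fold lower in Med14 S983A CON than in WT CON. The 3 peaks were picked for their ratio, and the part of these differences in the missing mutant calls was not tested.

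Among WT stimulus-only peaks with a larger value of at least 2 FPKM, Ex-4 exceeded FSK most at chr19:55580309-55580665, with 5.06 FPKM in WT Ex-4 (4.49 to 5.68) and 1.60 FPKM in WT FSK (1.35 to 1.88). It was followed by chr14:43495733-43496127, with 2.19 FPKM (1.84 to 2.59) against 0.798 FPKM (0.632 to 0.995), and by chr1:190618116-190618302, with 2.23 FPKM (1.73 to 2.84) against 0.856 FPKM (0.612 to 1.17). The intervals of the 2 libraries did not overlap at any of the 3 sites. The sites were picked for their ratio in these same libraries, and the intervals cover counting error only, so nothing is read from this.

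The strongest WT stimulus-only peaks were of another kind. The 10 with the largest weaker value had 18.7 to 33.0 FPKM in WT Ex-4 and 19.7 to 36.1 FPKM in WT FSK, and Ex-4 was higher in 6 of the 10. The first was chr12:47791300-47791414, with 33.0 FPKM in WT Ex-4 (30.4 to 35.7) and 36.1 FPKM in WT FSK (33.9 to 38.3). Next came chr14:43141953-43142063, with 29.5 FPKM in WT Ex-4 and 24.2 FPKM in WT FSK. The third was chr12:31395150-31395263, with 27.2 and 23.5 FPKM.

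The other 7 were on chromosomes 7, 1, 4 and 10. On chromosome 7, chr7:145157409-145157525 had 27.0 FPKM in WT Ex-4 and 22.9 in WT FSK, and chr7:143676822-143676933 had 25.1 and 22.7. On chromosome 1, chr1:140600593-140600737 had 24.3 and 22.2, chr1:239263728-239263962 had 19.6 and 26.6, and chr1:226747081-226747209 had 18.7 and 24.0. The peak at chr4:119961224-119961349 had 21.8 and 22.7 FPKM, and that at chr10:94208646-94208782 had 21.8 and 19.7 FPKM. All 10 were listed at 0 in the other 4 libraries.

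These 10 peaks were 110 to 234 bp long, and 9 of them were at most 150 bp. Each lay beside a peak called in all 6 libraries, the nearest at 407 to 3668 bp, and that neighbour had 22.2 to 75.2 FPKM in WT CON and 16.2 to 85.9 FPKM in Med14 S983A CON. Beside chr7:145157409-145157525, for example, the peak 407 bp to the left had 74.0, 71.1 and 49.0 FPKM in WT CON, Ex-4 and FSK and 83.6, 78.0 and 55.7 FPKM in the mutant. The surroundings of the strongest peaks were thus open in all 6 libraries, and the strong values stood in very short intervals.

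Length and surroundings differed along the range of strength, and the weakest class was the longest and had the fewest peaks called in all 6 nearby. The 1423 peaks with a weaker value under 2 FPKM had a median length of 219 bp, and 19.8% of them had a peak called in all 6 within 5 kb, centre to centre. Of the 697 peaks between 2 and 4 FPKM this was 39.2%, of the 154 between 4 and 8 FPKM 87.0%, and of the 110 with 8 FPKM or more 97.3%, with a median length of 141.5 bp in the last. The strongest peak called in all 6 within that distance had a median of 3.91 FPKM in WT CON beside the weakest class and 34.1 FPKM beside the strongest class. In Med14 S983A CON these medians were 3.36 and 32.3 FPKM.

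Short strong peaks were called unevenly in the whole table. Of the 2936 merged peaks of at most 150 bp that reached 10 FPKM in some library, 62.6% were called in only 1 or 2 libraries and 11.6% in all 6. Of the 49075 peaks over 300 bp that reached this level, 0.556% were called in 1 or 2 libraries and 91.2% in all 6. The WT stimulus-only peaks held 646 of at most 150 bp (27.1%). Their lower quartile of length was 147 bp, against 161 bp over all merged peaks and 136 bp for the mutant stimulus-only peaks. In the 1738 longer ones the median log2 ratio of FSK over Ex-4 was 0.36 in place of 0.18, and FSK was higher in 71.6%. The part of peak length in the missing calls was not tested.

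**Figure D4:**
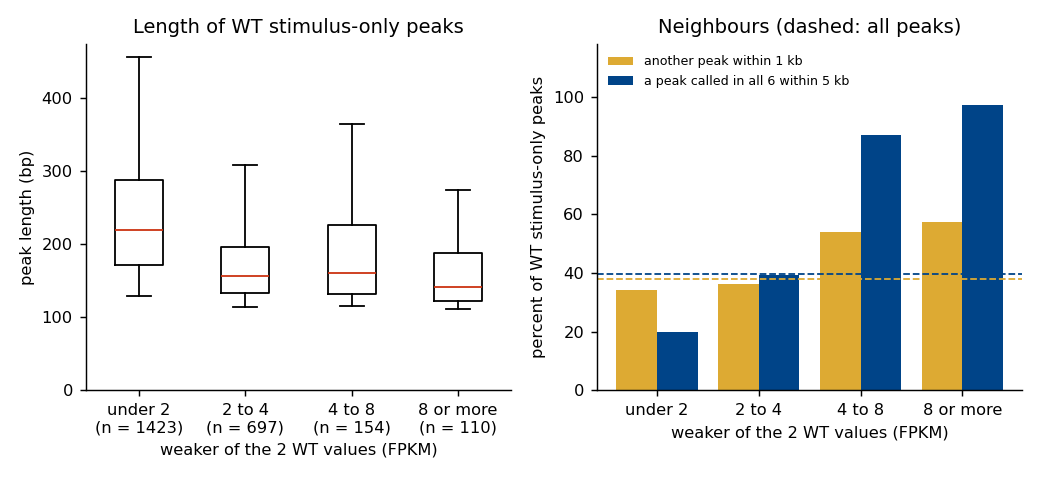
WT stimulus-only peaks in 4 classes of the weaker of their WT Ex-4 and WT FSK values. Left, peak length in bp (red line, median; box, quartiles; whiskers, 5th and 95th percentiles). Right, percent of each class with another peak within 1 kb, edge to edge, and with a peak called in all 6 libraries within 5 kb, centre to centre; dashed lines give the same over all merged peaks (38.0% and 39.5%). From the weakest to the strongest class the peaks called in all 6 nearby go from 19.8% to 97.3%.

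As a whole the WT stimulus-only peaks were not set closer to other peaks than peaks in general. Another peak lay within 1 kb, edge to edge, in 37.1% of them against 38.0% of all peaks, 43.1% of the mutant stimulus-only peaks and 41.8% of the peaks called in all 4 stimulated libraries only. The nearest peak called in all 6 was at a median of 8203 bp, centre to centre, against 6836.5 bp over all peaks. Of the WT stimulus-only peaks, 2271 had no other within 10 kb, 52 pairs and 1 group of 3 occurred, and 1 group held 6. The same counts are not given here for all peaks or for the other sets, so nothing is read from them about spacing.

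Peaks called in all 6 libraries have values throughout and do not depend on the rule, and 1045 of them lay within 5 kb of a WT stimulus-only peak. Only 796 of the 2384 WT stimulus-only peaks (33.4%) had such a neighbour, so the surroundings of the rest were not measured. A neighbour also had to be called in every mutant library, which leaves out sites the mutant lacked. The changes below are over the 1045 neighbours. The median log2 change with FSK was −0.11 in WT and −0.08 in Med14 S983A, and the median of their differences, mutant minus WT, was 0.0073 (−0.01 to 0.026). With Ex-4 the median changes were −0.02 and −0.02, and the median difference was 0.00017 (−0.012 to 0.018). Over all 86576 peaks called in all 6 the median differences were −0.00096 for FSK and −0.0035 for Ex-4. In the median over these neighbours, the response to either stimulus therefore differed little between the genotypes. The median FSK difference was 0.050 (0.015 to 0.072) beside WT stimulus-only peaks with a weaker value of 4 FPKM or more. It was −0.015 (−0.045 to 0.0047) beside those under 4 FPKM.

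By counts of single peaks, 81 of the 1045 (7.75%) were at least 2-fold higher with FSK than in CON in WT, where 5.94% of all peaks called in all 6 were. In Med14 S983A this was so for 69 (6.60%), where 4.56% of all were. With Ex-4 it was so for 9 peaks (0.861%) in WT against 0.448% of all, and for 8 (0.766%) in Med14 S983A against 0.635% of all. Beside the peaks called in all 4 stimulated libraries only, the FSK shares were 9.03% in WT and 7.44% in the mutant, and beside the mutant stimulus-only peaks they were 4.21% and 3.75%. Beside the peaks called in WT CON and WT Ex-4 only, a pair that includes CON, they were 9.90% and 7.25%. A share above that of all peaks was therefore not particular to the surroundings of WT stimulus-only peaks. No peak near a WT stimulus-only peak was at least 2-fold higher with FSK in 1 genotype and at least 2-fold lower in the other. Only 2 of all 86576 peaks called in all 6 were, so nothing is read from this absence.

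The 5 of these neighbours with the largest log2 change with FSK in WT were higher with FSK in both genotypes. At chr20:17376687-17377034 the values were 0.80, 1.18 and 11.3 FPKM in WT CON, Ex-4 and FSK and 1.72, 4.27 and 9.21 FPKM in the mutant. At chr10:35692924-35693361 they were 1.18, 2.33 and 13.7 FPKM in WT and 1.31, 2.32 and 6.50 FPKM in the mutant. At chr4:177389190-177390062 they were 3.91, 11.5 and 28.0 FPKM in WT and 8.89, 25.5 and 45.1 FPKM in the mutant. These 5 were picked for their WT change, and the median change with FSK over all 1045 neighbours was below 0 in both genotypes, as given above.

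The genotypes were also compared without a stimulus beside the WT stimulus-only peaks. Med14 S983A CON was at least 2-fold below WT CON in 132 of the 1045 peaks (12.6%), where 10.5% of all peaks called in all 6 were, and at least 2-fold above it in 40 (3.83%), where 4.90% of all were. The median log2 difference of the CON libraries, mutant minus WT, was −0.04 near WT stimulus-only peaks (−0.09 to 0.00), 0.05 over all peaks called in all 6 and 0.11 near the mutant stimulus-only peaks. Of the WT CON peaks within 5 kb of a WT stimulus-only peak, 471 of 1908 (24.7%) were called in no mutant library, where 17.1% of all WT CON peaks were. Beside the mutant stimulus-only peaks the corresponding share was 13.9%. The reverse share, of Med14 S983A CON peaks that no WT library called, was 9.55% beside WT stimulus-only peaks, 10.3% over all and 21.1% beside mutant stimulus-only peaks. These neighbours were not chosen by the rule. Among WT CON peaks of at least 2 FPKM the shares were 21.3% beside WT stimulus-only peaks and 14.5% over all. Beside the 2120 WT stimulus-only peaks with a weaker value under 4 FPKM, 29.5% of 1438 WT CON peaks had no mutant call. This is above the 24.7% of all 1908, so the share was lower among WT CON peaks beside stronger ones only. The excess over all WT CON peaks was thus not shown for the surroundings of the stronger ones.

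The densest group lay on chromosome X. Between 2 peaks called in all 6, at chrX:124786322-124787041 and chrX:124859953-124861344, stood 20 peaks over 72.9 kb, and 6 of these were WT stimulus-only peaks. Of the 20, 8 were called in WT CON, 13 in WT Ex-4 and 18 in WT FSK, against 3, 4 and 3 in Med14 S983A CON, Ex-4 and FSK, and 15 were called in no mutant library. FPKM multiplied by length in kb and summed over the 20 peaks came to 4.48, 9.11 and 17.1 in WT CON, Ex-4 and FSK and to 1.57, 1.74 and 1.63 in the mutant. These sums move with the number of calls. The bounding peaks were similar in the genotypes, with 17.5 and 22.4 FPKM in WT CON and Med14 S983A CON on the left and 24.9 and 26.8 FPKM on the right.

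The WT stimulus-only peaks of this group were faint. The 3 with the largest weaker value were chrX:124821215-124821406, with 3.36 FPKM in WT Ex-4 (2.74 to 4.08) and 6.19 FPKM in WT FSK (5.51 to 6.94), chrX:124818910-124819232, with 3.62 FPKM (3.11 to 4.18) and 3.09 FPKM (2.72 to 3.50), and chrX:124843951-124844168, with 1.83 FPKM (1.40 to 2.34) and 2.53 FPKM (2.13 to 2.99). A further WT stimulus-only peak, seen after its values were known, stood beyond the right boundary at chrX:124888395-124888892, with 12.9 FPKM in WT Ex-4 and 19.7 FPKM in WT FSK. Its neighbour at chrX:124887110-124887739 had 18.0, 35.2 and 39.4 FPKM in WT CON, Ex-4 and FSK and 1.02, 1.65 and 1.53 FPKM in Med14 S983A. Another, chrX:124870302-124870622, had 22.1, 23.1 and 22.8 FPKM in WT and was listed at 0 in all 3 mutant libraries. At chrX:124887110-124887739 the mutant was thus low in CON too, while at chrX:124870302-124870622 it was uncalled in CON too.

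**Figure D5:**
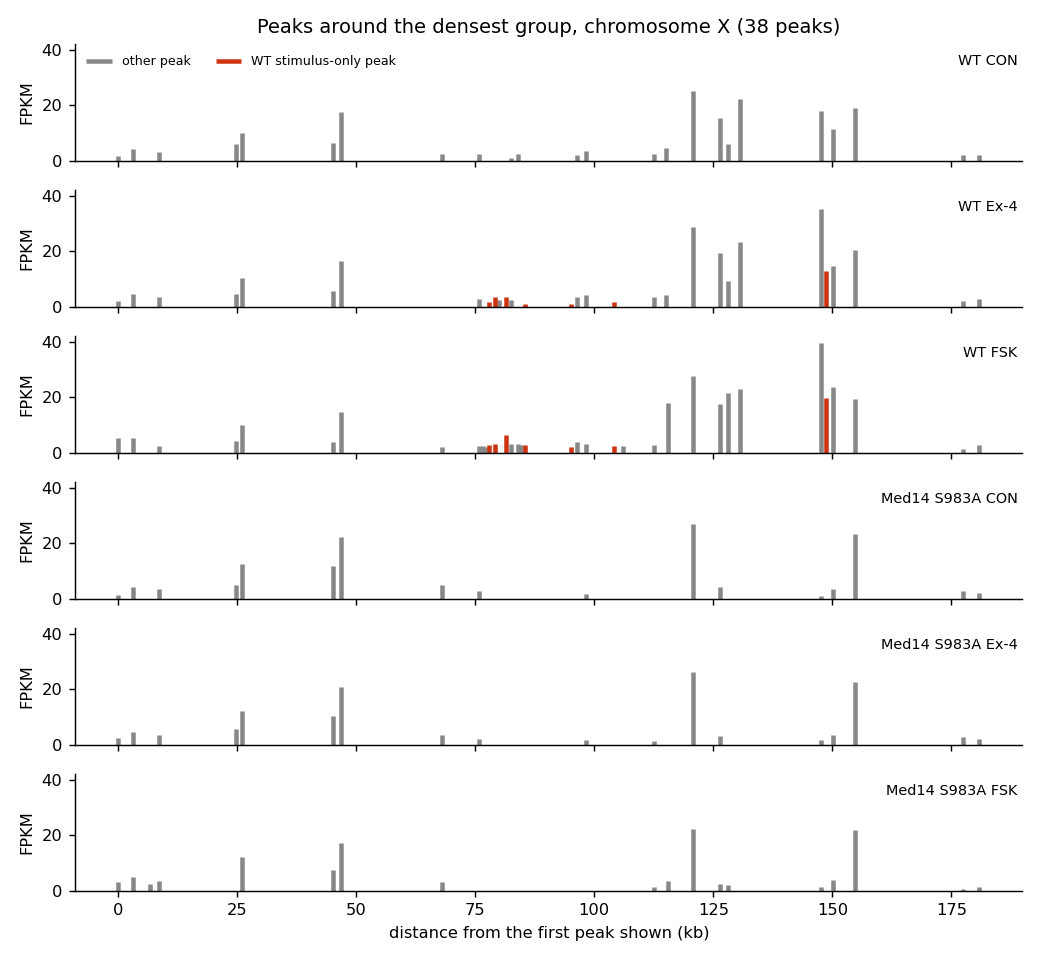
FPKM (y axis, 1 panel per library) of the 38 peaks around the densest group on chromosome X against the distance in kb from the first of them (x axis). Red lines are WT stimulus-only peaks and grey lines other peaks. Peaks at both ends are mostly alike in the 6 panels, while most peaks between 75 and 150 kb appear in the WT panels only.

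Other concentrations were found by counting WT stimulus-only peaks in windows of 100 kb, which was done after the values were seen. At chr10:15990425-16035904, 6 such peaks stood among 25, of which 23 were called in no mutant library and none in all 6. Their values were low, from 0.725 to 3.53 FPKM for the weaker of the 2. FPKM times length in kb, summed over the 25 peaks, was 1.47, 3.78 and 16.2 in WT CON, Ex-4 and FSK and 0.335, 0 and 0.669 in the mutant. Here most of the 25 were called in WT FSK only.

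At chr1:128945639-129037368 the picture was different. There 6 WT stimulus-only peaks stood among 51 peaks, and the summed value went from 33.9 in WT CON to 59.4 with Ex-4 and 144 with FSK and from 21.9 to 39.6 and 83.9 in the mutant, sums that again move with the number of calls. The 4 peaks of this window called in all 6 were higher with FSK than in CON in both genotypes, among them chr1:128982873-128983249 with 1.04, 3.20 and 11.7 FPKM in WT CON, Ex-4 and FSK and 1.66, 3.67 and 10.7 FPKM in the mutant. The peak at chr1:128973862-128974893 in this window, for example, was listed at 0 in both CON libraries and had 2.57 and 8.47 FPKM in WT Ex-4 and FSK and 2.60 and 6.13 FPKM in the mutant. Among the WT stimulus-only peaks themselves, chr1:128986331-128986453 had 4.85 FPKM with Ex-4 and 8.78 FPKM with FSK.

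Across chromosomes the WT stimulus-only peaks made up between 0.698% of the peaks (chromosome 11, 46 peaks) and 1.58% (chromosome 15, 92 peaks). The positions were also set against 4 long stretches, found in the same libraries. In these, runs of 200 neighbouring peaks called in all 6 differed at least 1.5-fold between the genotypes in all 3 conditions. The stretches lay on chromosomes 4, 5, 9 and 15, and not on chromosome 11 or on chromosome 12 (1.56%, 112 peaks). In the 2 stretches where the mutant was lower, on chromosomes 4 (chr4:159247647-180266951) and 15 (chr15:56885-5565084), lay 64 WT stimulus-only peaks, or 2.68% of them against 0.935% of all peaks, and 0 mutant stimulus-only peaks. In the 2 where the mutant was higher, on chromosomes 5 (chr5:154306858-173533976) and 9 (chr9:79332023-111114791), lay 26 WT stimulus-only peaks (1.09%) and 166 mutant stimulus-only peaks (7.95%), against 2.41% of all peaks. Outside these stretches 2294 WT stimulus-only peaks remained, 1.08% of the peaks there, and the share of gained WT peaks that no mutant library called was 30.1% without them. The median log2 difference of the CON libraries was −0.89 in the chromosome 4 stretch and 0.90 in that of chromosome 5. The peak with a FSK value of 16.0 FPKM on chromosome 4 described above lies in the former.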

How the data were processed

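ATAC-seq libraries of INS-1 cells, WT or Med14 S983A, were analysed from the merged peak table that the authors deposited, with 1 library per condition (CON, Ex-4, FSK). The authors used Trim Galore for trimming, bwa mem for alignment (rn6), SAMtools for filtering and MACS2 for peaks of each library, merged the peaks and deposited FPKM computed with HOMER. The study's methods shift fragments for the Tn5 cut after peak calling, for footprinting, and do not say if these FPKM rest on shifted fragments. Tests on the table showed that FPKM are relative to reads in the library's own peaks and that 0 marks an uncalled peak. Groups came from the sample labels. The peaks, lists and comparisons were chosen with earlier results of these data known.

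Peaks of the mitochondrial chromosome were left out. Ratios used log2(FPKM + 0.5), so they understate changes at low values. Median intervals are 95% order-statistic intervals over peaks, not replicate errors. Reads in peaks were recovered from the steps of low values (100% whole within 0.15), and Poisson intervals cover counting error only. No count model and no test was used, as no condition has replicates. Individual peaks were named by rule: the 10 with the largest weaker WT value, the 3 with the largest ratio each way among those reaching 2 FPKM, 3 in the densest group within 10 kb, and 3 near misses. Scripts (Python 3.11.15, pandas 2.3.3, scipy 1.17.1) were tested on a simulated table. Genes, cell type markers, motifs and sequences at the peaks were not analysed here, as no rn6 sequence or annotation was at hand.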

Additional observations from a re-analysis of the deposited data

How the results depend on the processing

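Membership by values above 0 gave 2404 peaks and at least 1 FPKM in both WT stimulated libraries 2147, but at least 2 FPKM left 961. A mean over the 6 libraries of at least 0.5 FPKM kept 2019 and of at least 3 FPKM 126, and floors at the 25th percentile and the median kept 513 and 184. The median log2 FSK over Ex-4 was 0.21 with a pseudocount of 0.1, 0.22 centred, 0.25 quantile-normalized and 0.36 over 150 bp, with FSK higher in 65.8% centred, 68.4% quantile-normalized and 71.6% over 150 bp. The share of gained WT peaks that no mutant library called was 32.5% and 31.4% from 1 and 2 FPKM and 26.3% over 150 bp. Centring moved the median difference near these peaks to 0.058 for FSK and −0.013 for Ex-4. A further peak lay within 5 kb of 72.3% and within 200 bp of 9.40%. The WT CON peaks that no mutant called made up 19.9% within 20 kb, 29.5% beside peaks under 4 FPKM and 21.3% from 2 FPKM in WT CON, where all such WT CON peaks gave 14.5%. Settings on length, on the 4 stretches and on the WT CON peaks, except the planned removal of the stretches for the median differences, were chosen after seeing the data. Of 43 alternatives, 21 stayed within the interval or 1.5 times the count and 22 moved. The median Ex-4 difference, 0.00017 with an interval on both sides of 0, also took the other sign within 20 kb (−0.0016) and with a pseudocount of 0.1 (−0.00075). No paired analysis was possible because the WT stimulus-only peaks were called in WT Ex-4 and WT FSK only. For the peaks called in all 6, a fit that pairs the genotypes by condition was not run. Leaving out a replicate was not possible with 1 library per condition.

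With 1 library per condition, differences between genotypes or stimuli cannot be told apart from differences between libraries or clones. Depth differed, from 251200000 reads in peaks in WT FSK to 134300000 in Med14 S983A CON, its part in the calls was not tested, and values under about 1.2 FPKM lay at the floor of calling.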
